A study of Mus musculus with 16 samples.

Results

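The genes described here encode the enzymes of glycolysis, the carriers that bring glucose in and take lactate out, and a group of targets of the hypoxia-inducible factor HIF1. They were taken as the rows of the count table whose gene name was on a list of 32 names. Of these, 31 names were found as written and Ero1l was found under its current symbol Ero1a. The name Aldoa stood on 2 rows, and the row with almost all the reads was used, which left 32 genes of the 56748 in the table. All 32 passed the filter on low counts.

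The data are messenger RNA counts from bone marrow-derived macrophages of 4 wild type male C57BL6 mice, with 1 library per mouse in each of 4 groups (16 libraries). The groups were the vehicle DMSO, lipopolysaccharide (LPS) at 100 ng/mL for 6 h, the REV-ERB agonist SR9009 at 10 µM for 16 h, and SR9009 followed by LPS. All cells had been differentiated and kept in high glucose medium with serum and supernatant of L929 cells, which supplies the macrophage growth factor, so every group including the controls shared this supply of glucose. The labels do not say whether the cells given LPS alone first received DMSO overnight.

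Glycolysis splits glucose into pyruvate and gives ATP without oxygen. Macrophages that meet LPS, a component of bacterial outer membranes, are known to turn to this pathway even when oxygen is present, and to export the lactate that lactate dehydrogenase makes. HIF1 is a transcription factor whose alpha subunit is marked for destruction by prolyl hydroxylases when oxygen is present, and many glycolytic genes carry binding sites for it. REV-ERB proteins are nuclear receptors of the circadian clock that repress transcription, and SR9009 is a synthetic ligand made to activate them.

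The HIF1 site has the core letters ACGTG or GCGTG. The windows of 250 bases before the RefSeq starts of 5 members are shown because these genes had the largest LPS responses among the carriers and enzymes or changed with SR9009. They are given 5′ to 3′ on the gene's strand, with either core on either strand in capitals. Coordinates of these windows are on GRCm38.p6, the build of the RefSeq table, and not on the GRCm39 build of the count table.
Pfkfb3, chr2:11502091-11502340, minus strand: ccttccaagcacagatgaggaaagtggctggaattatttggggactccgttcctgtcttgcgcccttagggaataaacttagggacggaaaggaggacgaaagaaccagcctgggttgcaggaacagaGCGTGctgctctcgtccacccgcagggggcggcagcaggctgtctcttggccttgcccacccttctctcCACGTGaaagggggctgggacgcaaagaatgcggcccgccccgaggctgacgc
Slc2a1, chr4:119108495-119108744, plus strand: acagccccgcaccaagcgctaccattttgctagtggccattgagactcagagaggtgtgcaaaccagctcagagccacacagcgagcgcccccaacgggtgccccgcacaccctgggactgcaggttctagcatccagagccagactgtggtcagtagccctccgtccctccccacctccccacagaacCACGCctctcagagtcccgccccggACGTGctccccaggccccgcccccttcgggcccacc
Slc16a3, chr11:120948817-120949066, plus strand: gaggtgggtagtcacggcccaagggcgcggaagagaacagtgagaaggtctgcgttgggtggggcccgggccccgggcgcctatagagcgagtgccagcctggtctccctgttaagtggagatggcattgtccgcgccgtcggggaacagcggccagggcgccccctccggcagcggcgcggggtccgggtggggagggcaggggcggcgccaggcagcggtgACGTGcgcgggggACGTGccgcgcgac
Slc2a6, chr2:27027999-27028248, minus strand: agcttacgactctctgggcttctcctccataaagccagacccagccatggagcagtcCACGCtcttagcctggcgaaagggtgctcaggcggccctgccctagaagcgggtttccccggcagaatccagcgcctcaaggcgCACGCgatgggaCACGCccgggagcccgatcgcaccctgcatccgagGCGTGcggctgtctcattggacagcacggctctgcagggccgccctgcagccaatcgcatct
Aldoc, chr11:78322823-78323072, plus strand: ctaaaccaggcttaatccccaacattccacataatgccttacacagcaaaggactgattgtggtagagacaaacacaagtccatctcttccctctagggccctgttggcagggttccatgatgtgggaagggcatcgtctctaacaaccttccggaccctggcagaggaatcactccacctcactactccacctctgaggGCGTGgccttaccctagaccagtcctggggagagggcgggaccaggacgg
Pfkfb3 and Aldoc each have another RefSeq start whose window is not printed. The window not printed holds ACGTG at 1 place for Pfkfb3, fewer matches than the printed one, and GCGTG at 1 place for Aldoc. The Pfkfb3 window holds 1 E-box, CACGTG, which contains the core ACGTG on both strands, and 1 GCGTG. The Slc16a3 window holds ACGTG at 2 places, the Slc2a6 window holds GCGTG at 4 places, the Slc2a1 window holds each core at 1 place, and the Aldoc window holds GCGTG at 1 place.

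Over all members, 37 of 46 windows held ACGTG or GCGTG (80.4%), against 38.6% of the 32851 windows of all genes in the RefSeq table. ACGTG, with or without the other core, was in 47.8% of the members' windows and 16.6% of all windows. GCGTG, counted in the same way, was in 54.3% and 28.2%. The E-box CACGTG was in 13.0% and 6.02%. The letters AGGTCA, the half-site that REV-ERB proteins bind, were in 15.2% of the members' windows and 14.0% of all windows. Windows of the same gene can overlap, several members were listed as HIF1 targets, and a match of letters is not a measured binding site. Both cores contain the letters CG, and the base composition of the windows was not matched between members and all genes, so the shares do not measure HIF1 sites.

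Total counts per library ran from 12616442 to 24214863, and genes with a read from 13298 to 18947. The SR9009 library of mouse 1 was the lowest in both, with the next lowest at 15819992 counts and 16419 genes, and it stood apart on the second principal component of all genes (184.6 against -38.7 to 32.2 in the other 15). The counts of members called in the SR9009 comparisons are given with and without it, as are the fold changes of most members described there. All 8 macrophage markers were above 1 CPM (counts scaled to a fixed library size, so that libraries of different depth can be compared) in at least 1 library of every group, with a sum of 5403 to 11259 CPM. The sum hides unequal levels, with Lyz2 at only 9.22 to 54.7 CPM over the libraries. The neutrophil markers summed to 10.6 to 51.6 CPM, highest in the SR9009 library of mouse 1, where Mmp8 made up 50.7 CPM. Ly6g was at 0 in every group. T cell, NK cell, mast cell and erythroid markers summed to under 1 CPM in every library, and those of dendritic cells, B cells and fibroblasts to at most 1.87 CPM. The 4 endothelial markers summed to 3.34 to 17.5 CPM without LPS and 88.9 to 191 CPM with it, carried by 2 markers, and their part in the results below was not tested. In such bulk libraries, fewer cells and less RNA per cell cannot be told apart.

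Levels are in CPM with library sizes scaled by TMM, a scaling that assumes most genes do not differ. Its factors were 1.16 to 1.26 in the DMSO libraries and 0.738 to 0.823 in the LPS libraries. Small fold changes with LPS therefore depend on this scaling, and whether its assumption holds under LPS was not tested. Per kilobase of gene length, the most abundant member in DMSO was Aldoa, at 387 ± 13.5 CPM per kb (SD, n = 4). Pkm, the pyruvate kinase gene, followed at 347 ± 82.2 CPM per kb, and the 2 did not differ beyond their spread. Pgk1 at 175 ± 24.2, Pgam1 at 160 ± 12.3 and Ldha at 156 ± 23.8 CPM per kb came next and overlapped. The lowest were Slc16a1 at 1.79 ± 0.133 and Eno2 at 1.38 ± 0.243 CPM per kb. Gapdh had rank 28, at 7.96 ± 12.8 CPM per kb. Its counts, and to a lesser degree those of other members with pseudogenes, are uncertain for the reason given below, so the order is too. After LPS, Aldoa was still first at 621 ± 72.6, and Pgk1 moved to the second place at 518 ± 58.9, with Pkm at 509 ± 138 and Ldha at 486 ± 85.0 CPM per kb.

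LPS versus DMSO asks what 6 h of LPS did to these genes in cells without SR9009. LPS raised 21 members and lowered 1, Pfkm, at an adjusted p under 0.05. Of all 13438 genes tested, 39.8% were called in this comparison, 19.4% higher (2611 genes) and 20.4% lower (2741 genes). The members' median log2 fold change was 1.54, against -0.08 over all genes. With upper-quartile scaling the median over all genes was -0.28 and the split of calls 2126 higher and 3459 lower, and 21 members were still called. In 25 members the 4 LPS libraries did not overlap the 4 DMSO libraries, as in 57.6% of all genes tested. Leaving out mouse 2, 3 or 4 ended the calls of Pfkl, Tpi1, Pgam1 and Eno2, and also that of Egln3 without mouse 2 (adjusted p = 0.0582). Without the SR9009 library of mouse 1, which is in neither group, 24 members were called higher and 2 lower, and 7835 of 13645 genes in all. That fit added Aldoa, Eno1 and Pdk1 as higher and Pfkfb4 as lower.

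Among the carriers that bring hexoses across membranes, Slc2a1, the glucose transporter GLUT1 of the cell surface, was at 55.6, 57.7, 41.6 and 49.7 CPM in the DMSO libraries of mice 1 to 4. It was at 451, 551, 603 and 545 CPM after LPS. All 4 LPS libraries lay far above all DMSO libraries, and the log2 fold change was 3.39 ± 0.53 (SE; edgeR adjusted p = 0.000117). Slc2a6, which encodes the hexose transporter GLUT6 of lysosomes, rose from 123, 209, 98.6 and 107 CPM to 685, 977, 963 and 996 CPM. Mouse 1 was lowest after LPS, and the log2 fold change was 2.75 ± 0.66 (adjusted p = 0.00347).

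The 3 hexokinase genes, whose products trap glucose by phosphorylation, all rose. The log2 fold change was 2.50 for Hk2, 2.05 for Hk3 and 1.80 for Hk1. Per length, Hk3 made up 59.9% ± 3.2 (SD, n = 4) of the hexokinase transcripts in DMSO and 59.5% ± 2.7 after LPS, so its share stayed within the spread. The size of the share depends on the gene lengths in the count table, 8532 bases for Hk1, 5969 for Hk2 and 3682 for Hk3. The lengths of the transcripts expressed were not measured. Gpi1, the glucose-6-phosphate isomerase gene, had a log2 fold change of 0.10 and did not pass the test (575 ± 41.1 CPM in DMSO and 617 ± 102 CPM after LPS).

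The phosphofructokinase genes, which encode the enzyme of the committed step, moved in opposite directions. Pfkp, the platelet isoform, was at 57.3, 56.1, 60.4 and 65.1 CPM in DMSO and at 357, 397, 308 and 322 CPM after LPS. Pfkm, the muscle isoform, was at 37.9, 33.6, 29.6 and 28.2 CPM in DMSO and at 12.6, 12.8, 10.6 and 9.56 CPM after LPS. Neither gene's groups overlapped. The log2 fold change was 2.54 ± 0.25 for Pfkp (adjusted p = 1.19e-06), -1.50 ± 0.24 for Pfkm (adjusted p = 0.000109) and 1.71 ± 0.63 for the liver isoform Pfkl (adjusted p = 0.0396). The call of Pfkl was made in 8 of 14 alternative fits, and it was lost with upper-quartile scaling (adjusted p = 0.0582), with no filter (0.0770), with limma-voom (0.0750) and without mouse 2, 3 or 4 (up to 0.194). Per length, Pfkm was 33.0% ± 2.8 of the 3 isoforms' transcripts in DMSO and 4.44% ± 1.1 after LPS, and Pfkp was at 15.3% ± 2.0 and 33.6% ± 7.6. The order of Pfkm and Pfkp in DMSO rests on the lengths in the count table, 3340 and 13401 bases. In CPM, without the division by length, Pfkp was above Pfkm in every DMSO library.

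Pfkfb3 had the largest LPS response of all members. It encodes the kinase-dominant enzyme that makes fructose 2,6-bisphosphate, the activator of phosphofructokinase. Its level was 91.8, 89.7, 45.8 and 40.9 CPM in the DMSO libraries and 2016, 2071, 1828 and 1765 CPM after LPS. The log2 fold change was 4.84 ± 0.32 (adjusted p = 3.8e-08). Pfkfb4, another member of the same enzyme family, had a log2 fold change of -0.62 that did not pass the test (adjusted p = 0.174) but was called in 4 of 14 alternative fits. Per length, Pfkfb3 was 38.8% ± 7.3 of the pair in DMSO and 96.7% ± 0.50 after LPS.

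Among the enzymes after phosphofructokinase, 4 genes rose, by up to 1.61 on the log2 scale. Aldolase splits the 6-carbon sugar, and neither of its genes passed the test: Aldoa was at 0.68 (adjusted p = 0.150) and Aldoc at -0.28 (adjusted p = 0.330). Aldoa was at 1102, 1138, 1091 and 1178 CPM in DMSO and at 1541, 1749, 2025 and 1918 CPM after LPS, with no overlap, and passed when only these 2 groups were fitted. Tpi1 (triose phosphate isomerase) rose by 1.61, Pgk1 (phosphoglycerate kinase) by 1.56, Pgam1 (phosphoglycerate mutase) by 1.31 and the minor enolase gene Eno2 by 1.08 on the log2 scale. Of these, Pgk1 alone stayed called whichever mouse was left out, and the adjusted p of the other 3 without mouse 2, 3 or 4 was between 0.0703 and 0.139. Eno1, the main enolase gene, was at 1.04 (adjusted p = 0.100) and Pkm at 0.55 (adjusted p = 0.363), and neither passed with all libraries. In the 14 alternative fits Eno1 was called in 6 and Pkm in 1.

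Gapdh, the glyceraldehyde-3-phosphate dehydrogenase gene, gave counts that varied widely between mice within every group. It was at 2.91, 112, 5.62 and 10.8 CPM in DMSO and at 18.3, 192, 109 and 32.2 CPM after LPS. With SR9009 it was at 0.836, 133, 8.01 and 13.6 CPM, and with SR9009 and LPS at 99.2, 12.9, 253 and 26.5 CPM. It was higher after LPS in 4 of 4 mice, but the groups overlapped and it did not pass (log2 fold change 1.42 ± 1.34, adjusted p = 0.429). After SR9009, it was higher with LPS in 3 of 4 mice. Gapdh is known as one of the most abundant transcripts of a cell and has many processed pseudogenes. How the counting treated reads that match several places is not given in the sources used here, so its values, and to a lesser degree those of other members with pseudogenes such as Eno1, Pgk1, Tpi1, Ldha and Aldoa, are uncertain.

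Genes of lactate production and of lactate export rose together. Ldha, the lactate dehydrogenase subunit that favours lactate, was at 441, 479, 517 and 624 CPM in DMSO and at 1296, 1453, 1899 and 1785 CPM after LPS (log2 fold change 1.64 ± 0.41, adjusted p = 0.00472). Ldhb, the other subunit, had a log2 fold change of -0.69 and did not pass (adjusted p = 0.254). Slc16a3, which encodes the lactate exporter MCT4, was at 94.8, 109, 70.2 and 83.6 CPM in DMSO and at 631, 758, 902 and 742 CPM after LPS. Its log2 fold change was 3.08 ± 0.80 (adjusted p = 0.00615), and it was not called when mouse 3 was left out (adjusted p = 0.0628). Slc16a1, which encodes the bidirectional carrier MCT1, was at 7.42, 7.77, 7.75 and 8.78 CPM in DMSO and at 59.2, 67.9, 49.4 and 36.3 CPM after LPS (log2 fold change 2.74 ± 0.36, adjusted p = 2.38e-05). In each of these 3 called genes the groups did not overlap.

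Of the HIF1 pathway itself, Hif1a, the alpha subunit, was at 208, 182, 115 and 114 CPM in DMSO and at 1071, 881, 641 and 516 CPM after LPS. The log2 fold change was 2.33 ± 0.57 (adjusted p = 0.00389). The oxygen sensors that mark this subunit also rose, Egln1 (PHD2) by 1.14 and Egln3 (PHD3) by 1.36 on the log2 scale. Among the targets, Bnip3 (mitophagy) rose by 2.53, P4ha1 (collagen prolyl hydroxylation) by 2.21 and Ero1a (disulfide formation in the endoplasmic reticulum) by 1.52. Ero1a was at 63.5, 52.3, 41.6 and 45.5 CPM in DMSO and at 171, 140, 146 and 124 CPM after LPS. Pdk1, which holds back pyruvate entry into mitochondria, was at 0.37 on the log2 scale (adjusted p = 0.107), and the angiogenic factor gene Vegfa at 0.42 (adjusted p = 0.565). Neither passed.

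**Figure D1:**
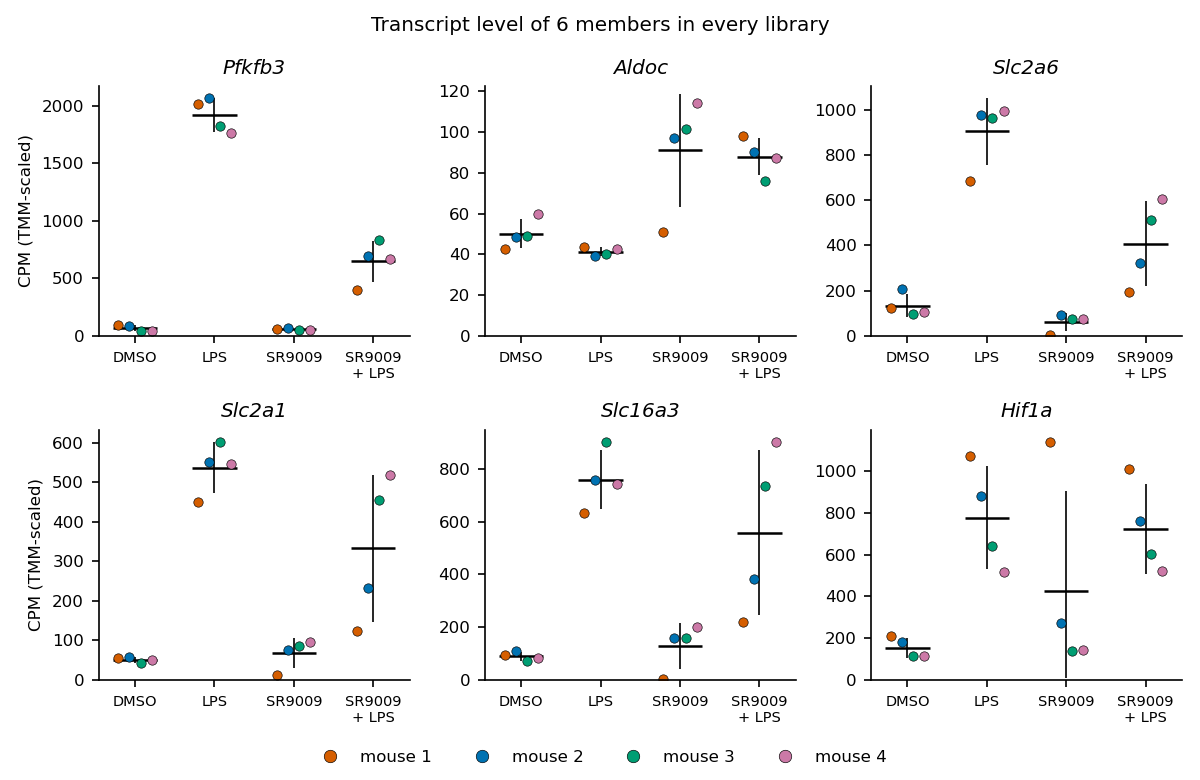
Level of 6 members in each of the 16 libraries, in CPM scaled by TMM on linear axes from 0; points are libraries coloured by mouse, horizontal lines are group means and vertical lines are ± 1 SD (n = 4). Pfkfb3 lies between 1765 and 2071 CPM after LPS and between 402 and 831 CPM after SR9009 and LPS, and the SR9009 library of mouse 1 lies far from the other 3 for Slc16a3 and Hif1a.

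SR9009 versus DMSO asks what SR9009 alone did. No member passed edgeR's test with all 16 libraries. Among all genes, 0.878% were called. At an unadjusted p under 0.05, 8 members were higher and none lower with edgeR, while 11.7% of all genes were past it, 7.96% higher. DESeq2 called 2 members, Ero1a (adjusted p = 0.0141) and Aldoc (adjusted p = 0.00605), and 2.44% of all genes, and limma-voom called none of the members. The members' median log2 fold change was 0.31, against 0.01 over all genes. In 4 members (Slc2a6, P4ha1, Ero1a and Bnip3) the groups did not overlap, against 9.54% of all genes.

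The library of mouse 1 stood apart for most members. In it, 24 members were below all 3 other SR9009 libraries, 4 were above (Bnip3, Vegfa, Ero1a and Hif1a) and 4 lay between. Slc16a3 was at 1.60 CPM there and at 158, 159 and 199 CPM in mice 2 to 4. Slc2a6 was at 2.93 CPM and at 94.0, 75.9 and 75.7 CPM, and Slc2a1 at 11.5 CPM and at 74.8, 85.9 and 95.9 CPM. Hif1a went the other way, with 1139 CPM in mouse 1 and 274, 136 and 145 CPM in mice 2 to 4. This is the shallowest library of the study, and the part of depth or RNA quality in its values was not tested.

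**Figure D2:**
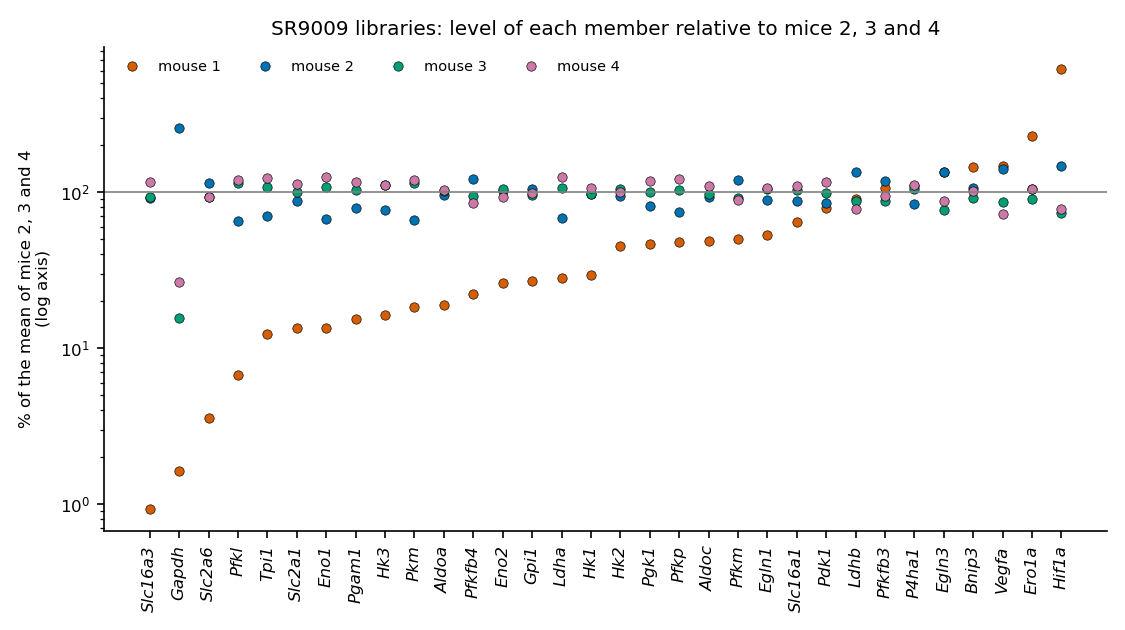
Level of each member in the 4 SR9009 libraries as a percent of the mean of mice 2, 3 and 4, on a log axis, with members ordered by the value in mouse 1 and points coloured by mouse. Mouse 1 runs from 0.932% for Slc16a3 to 616% for Hif1a.

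Without the SR9009 library of mouse 1, 3 members passed, all higher with SR9009, while 1.77% of 13645 genes tested were called, 0.696% higher. Aldoc was at 42.9, 48.7, 48.9 and 59.8 CPM in DMSO and at 97.3, 102 and 114 CPM in mice 2 to 4 with SR9009 (log2 fold change 1.01 ± 0.13, adjusted p = 0.00217). It was 50.9 CPM in the library left out, within the DMSO range. Aldoa was at 1855, 1982 and 2009 CPM with SR9009 in mice 2 to 4, above all DMSO libraries, and at 366 CPM in the library left out (log2 fold change 0.74 ± 0.14, adjusted p = 0.0157). Pfkp was at 81.8, 114 and 134 CPM, and at 52.5 CPM in the library left out (log2 fold change 0.84 ± 0.16, adjusted p = 0.0133). Both aldolase genes and 1 phosphofructokinase gene thus passed, and the median log2 fold change of the 32 members was 0.49, against -0.02 over all genes. The 3 SR9009 libraries left did not overlap DMSO in 18 members, 17 of them higher, against 18.4% of all genes. Over the 14 alternative fits the log2 fold change was 0.79 to 1.02 for Aldoc, 0.19 to 0.74 for Aldoa and 0.51 to 0.84 for Pfkp. Aldoc was called in 4 of them, and Aldoa and Pfkp in 3 each.

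Replicate numbers name the mice, and with the mouse as a block the count without this library was 6, adding Pgk1 (log2 fold change 0.67, adjusted p = 0.0354), Vegfa (1.10, adjusted p = 0.0338) and Ero1a (0.75, adjusted p = 0.0366). In that fit 4.29% of all genes were called. Over the 14 alternative fits Pgk1 was at 0.52 to 0.78 and Ero1a at 0.69 to 1.25 on the log2 scale. Pgk1 was called in 1 of them and Ero1a in 3. With all 16 libraries and the block no member passed edgeR's test (before adjustment, 9 higher members and 1 lower member had p under 0.05, as did 13.1% of all genes), while 1.47% of all genes were called. Hif1a, Slc2a6, the other carriers, Ldha and Pfkfb3 passed in none of these fits. With all libraries the log2 fold change was 1.45 for Hif1a (adjusted p = 0.326) and -1.11 for Slc2a6 (adjusted p = 0.503). It was 0.53 for Slc16a3, 0.39 for Slc2a1, 0.26 for Slc16a1, 0.17 for Ldha and -0.23 for Pfkfb3. Without the SR9009 library of mouse 1 Hif1a was at 0.22 ± 0.33 (adjusted p = 0.994), so its larger value rests on that library, and Slc2a6 was at -0.76 ± 0.33 (adjusted p = 0.444). Slc16a3 was then at 0.90, Slc2a1 at 0.70, Slc16a1 at 0.34, Ldha at 0.41 and Pfkfb3 at -0.29.

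SR9009 and LPS versus LPS asks what SR9009 did to cells that then met LPS. Pfkfb3 was lower and Aldoc higher in cells given SR9009 before LPS, and these were the 2 members called, while 1.79% of all genes were (1.06% higher, 0.737% lower). The members' median log2 fold change was -0.12, against 0.02 over all genes. In 9 members (Pfkfb3, Slc2a6, Hk1, Hk2, Hk3, P4ha1, Pfkm, Aldoc and Ero1a) the groups did not overlap, against 14.4% of all genes.

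Pfkfb3 was at 2016, 2071, 1828 and 1765 CPM after LPS in mice 1 to 4 and at 402, 695, 831 and 669 CPM when SR9009 came first. The highest library with SR9009 was far below the lowest without it, and mouse 1 was the lowest. The log2 fold change was -1.56 ± 0.28 (adjusted p = 0.00941), lower in 4 of 4 mice. Its level remained above that of SR9009 alone (60.2, 66.3, 49.7 and 53.2 CPM).

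Aldoc was at 43.7, 39.2, 40.0 and 42.6 CPM after LPS and at 98.2, 90.3, 76.1 and 87.0 CPM with SR9009 and LPS. The groups did not overlap, and the log2 fold change was 1.09 ± 0.22 (adjusted p = 0.0167), higher in 4 of 4 mice. Both calls held without mouse 1 and were lost without any 1 of the other 3. Without mouse 2, 3 or 4 no member was called, and 0.192%, 0.067% and 0.0371% of all genes were. At an unadjusted p under 0.05 edgeR then had 2, 1 and 1 members higher and 2, 1 and 1 lower, and 7.65%, 9.0% and 8.37% of all genes in either direction. The adjusted p rose to between 0.0921 and 0.150 for Pfkfb3 and between 0.227 and 0.271 for Aldoc. Over those 3 fits and the fit without mouse 1, the log2 fold change of Pfkfb3 was between -1.73 and -1.33 and that of Aldoc between 1.05 and 1.13.

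Leaving out the SR9009 library of mouse 1 changed this comparison although the library is in neither group, since it alters the filter, the scaling and the shared estimate of spread. Then 5 members passed, and 11.5% of all genes (6.68% higher, 4.79% lower). Pfkfb3 (-1.54 ± 0.27, adjusted p = 0.0029) and Slc2a6 (-1.12 ± 0.31, adjusted p = 0.0308) were lower. Aldoc (1.12 ± 0.12, adjusted p = 0.000159), Ero1a (0.67 ± 0.17, adjusted p = 0.0196) and Pfkm (0.63 ± 0.15, adjusted p = 0.0162) were higher. The fold changes differed little from those with all libraries, where Slc2a6 was at -1.15 (adjusted p = 0.455), Ero1a at 0.65 (adjusted p = 0.299) and Pfkm at 0.60 (adjusted p = 0.248).

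Slc2a6 was at 685, 977, 963 and 996 CPM after LPS and at 192, 321, 515 and 606 CPM with SR9009 first. Pfkm, lowered by LPS, was at 12.6, 12.8, 10.6 and 9.56 CPM after LPS and at 18.4, 18.6, 15.4 and 16.5 CPM with SR9009 first, still below every DMSO library. Ero1a was at 171, 140, 146 and 124 CPM and at 204, 174, 267 and 264 CPM. In all 3 the groups did not overlap.

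With the mouse as a block and all 16 libraries, 3 members were called, adding Vegfa (log2 fold change 1.10, adjusted p = 0.0356), while 3.98% of all genes were. Vegfa, singled out after its values were seen, was at 222, 144, 54.9 and 41.2 CPM after LPS and at 263, 438, 122 and 111 CPM with SR9009 first. Mice 1 and 2 were above mice 3 and 4 in every group, and within each mouse the value with SR9009 was higher. With the block and without the SR9009 library of mouse 1, 11 members passed, and 21.3% of all genes. Higher were Aldoa (0.41), Aldoc, Pfkfb4 (0.47), Pfkm, Vegfa, Ero1a and Egln3 (1.06), and lower were Pfkfb3, Slc2a6, Hk3 (-0.67) and Hk1 (-0.38).

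**Figure D3:**
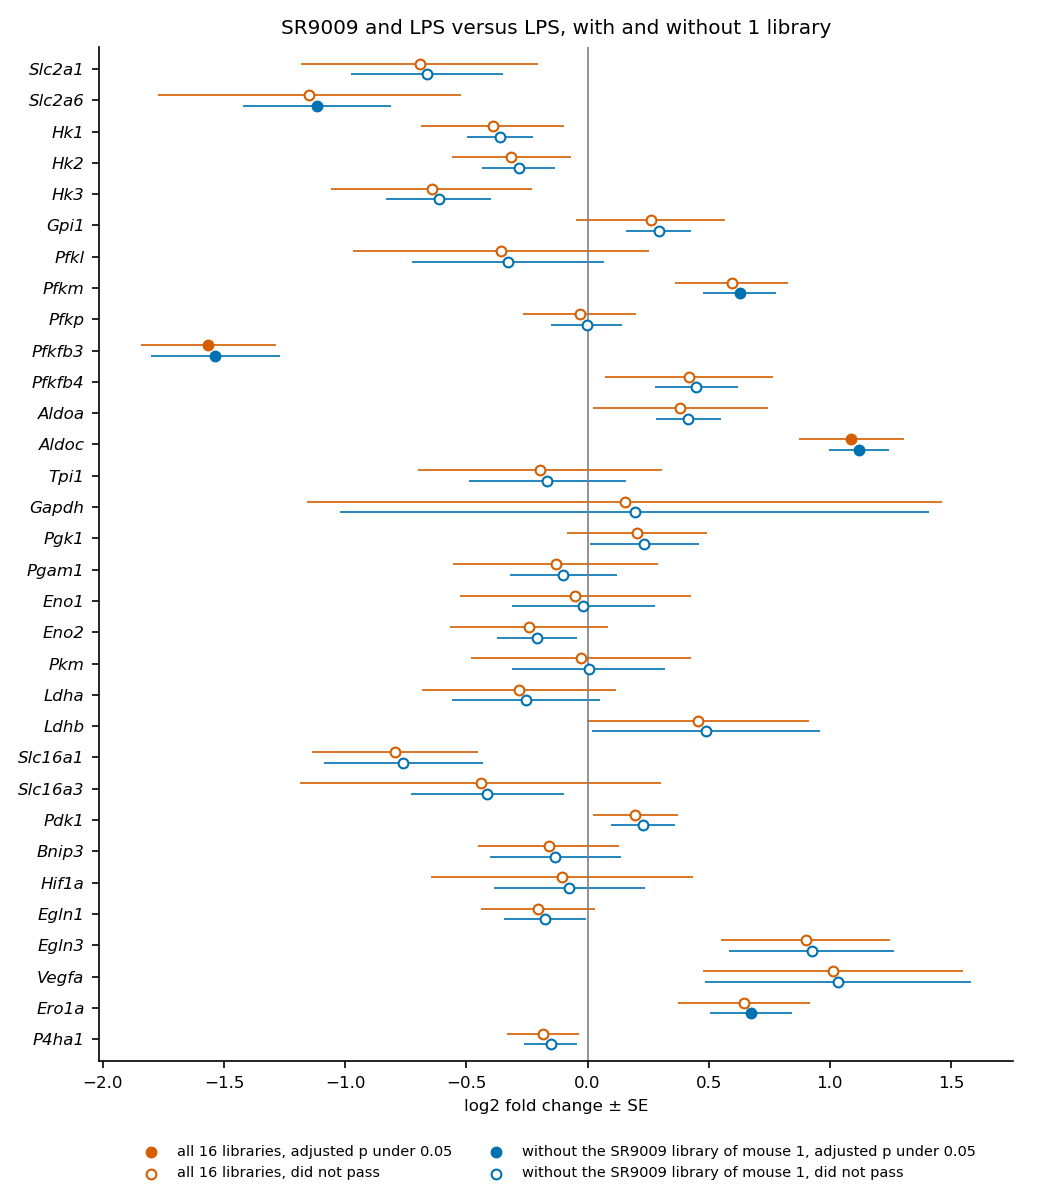
Log2 fold change ± SE of SR9009 and LPS versus LPS for the 32 members, from all 16 libraries and from the 15 left without the SR9009 library of mouse 1; filled points passed an adjusted p of 0.05. Pfkfb3 (-1.56 and -1.54) and Aldoc (1.09 and 1.12) passed in both fits, and Slc2a6, Pfkm and Ero1a in the second one.

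The main carriers and the lactate genes did not pass in any of these 4 fits. Slc2a1 was at 124, 234, 457 and 518 CPM with SR9009 and LPS (log2 fold change against LPS -0.69 ± 0.49, adjusted p = 0.607). Slc16a3 was at 218, 382, 733 and 900 CPM (-0.44 ± 0.74, adjusted p = 0.878). Ldha was at 631, 880, 1783 and 1994 CPM (-0.28 ± 0.40, adjusted p = 0.848). For these 3 genes mice 1 and 2 were low and mice 3 and 4 near or above the LPS values, so the groups overlapped. Within every mouse Slc2a1 was lower with SR9009 and LPS than with LPS alone, while Slc16a3 and Ldha were higher in mouse 4.

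The split between mice was not limited to those genes. With SR9009 and LPS, mice 3 and 4 were both above mice 1 and 2 for 21 of the 32 members and both below for 7, and mouse 1 was the lowest for 21. With LPS alone the counts were 10 above and 11 below, and in DMSO 10 above and 17 below. With SR9009 alone they were 17 above and 7 below, with mouse 1 the lowest for 24. Slc16a1 went the other way, with 37.7, 52.7, 17.8 and 14.5 CPM (log2 fold change -0.79 ± 0.34, adjusted p = 0.308). Hif1a, at 1008, 759, 601 and 519 CPM, kept the order of mice it had after LPS alone (-0.11 ± 0.54, adjusted p = 0.973). Pfkp (281, 377, 347 and 348 CPM) was close to its LPS values (-0.03 ± 0.23, adjusted p = 0.982). Aldoa was at 1894, 2065, 2572 and 2902 CPM (0.38 ± 0.36, adjusted p = 0.738), higher than after LPS in 4 of 4 mice. The fold changes of these 7 genes without the SR9009 library of mouse 1 were -0.66 for Slc2a1, -0.41 for Slc16a3, -0.25 for Ldha, -0.76 for Slc16a1, -0.07 for Hif1a, -0.00 for Pfkp and 0.42 for Aldoa, with adjusted p between 0.0614 and 0.996.

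SR9009 and LPS versus SR9009 gives the LPS response after SR9009. LPS raised 15 members and lowered Pfkm, while 30.3% of all genes were called, 14.5% higher and 15.8% lower. The members' median log2 fold change was 1.06, against -0.12 over all genes, and in 14 members the groups did not overlap, as in 27.3% of all genes. This held for 16 members and 47.0% of all genes without the SR9009 library of mouse 1. Fitting only these 2 groups left 9 members called (16.8% of all genes), and leaving out mouse 3 left 9 (18.8%). Without mouse 4 there were 10 (18.8%), and without the SR9009 library of mouse 1 there were 18 (43.5%). The largest response was again that of Pfkfb3, at 3.50 ± 0.30 (adjusted p = 5.75e-07). Slc2a6 followed at 2.71, Slc2a1 at 2.31, Slc16a3 at 2.11, Hk2 at 1.96, Pfkp at 1.82 and Slc16a1 at 1.69, while Ldha was at 1.19, Ero1a at 1.02 and Pfkm at -0.92. Hif1a did not pass with all libraries (0.77 ± 0.54, adjusted p = 0.312), but was called without the SR9009 library of mouse 1, at 2.03 ± 0.36 (adjusted p = 0.000382). In that fit Pfkfb3 was at 3.58, Slc2a6 at 2.37, Slc2a1 at 2.02, Hk2 at 1.81, Slc16a3 at 1.76, Pfkp at 1.68 and Slc16a1 at 1.63. Ero1a was at 1.49, Ldha at 0.96 and Pfkm at -1.05, and all of these were called.

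**Figure D4:**
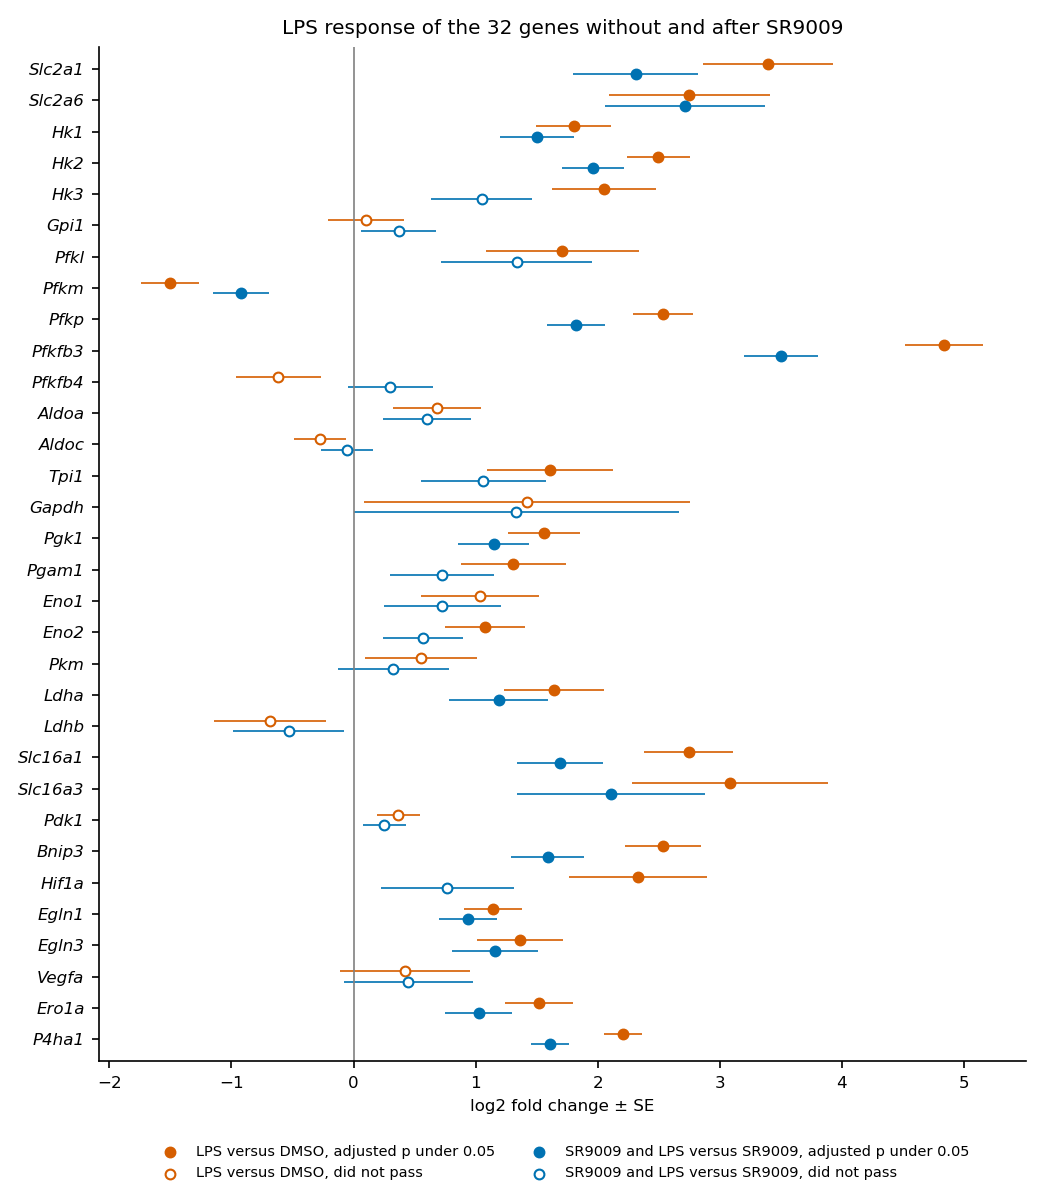
Log2 fold change ± SE of each of the 32 members for LPS versus DMSO and for SR9009 and LPS versus SR9009; filled points passed an adjusted p of 0.05. Pfkfb3 is farthest to the right in both (4.84 and 3.50), and Pfkm is the called member to the left of 0 in both (-1.50 and -0.92).

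The difference between the 2 LPS responses was tested as the interaction, and no member passed. Among all genes 0.00744% were called by edgeR, which is 1 gene, and DESeq2 and limma-voom called no member. Of the 13438 genes DESeq2 called 98 and limma-voom 0. At an unadjusted p under 0.05, edgeR had 5 members lower and none higher (DESeq2 6 lower). Past that level were 7.14% of all genes with edgeR, 3.63% lower, and 4.23% were lower with DESeq2. The interaction was -1.34 ± 0.39 for Pfkfb3 (adjusted p = 0.370), -1.56 ± 0.77 for Hif1a (adjusted p = 0.704), -1.05 ± 0.48 for Slc16a1 (adjusted p = 0.688) and -1.08 ± 0.69 for Slc2a1 (adjusted p = 0.795). No member passed without the SR9009 library of mouse 1 either, and 0.3% of all genes did. The values were then -1.25 ± 0.38 for Pfkfb3 (adjusted p = 0.173), -0.29 ± 0.46 for Hif1a (0.842), -1.10 ± 0.48 for Slc16a1 (0.358) and -1.36 ± 0.46 for Slc2a1 (0.214), so the value of Hif1a with all libraries rests on that library. At an unadjusted p under 0.05 this fit had 11 members lower and 1 higher, and 12.5% of all genes, 4.52% lower. With the block and without the SR9009 library of mouse 1, 2 members were called, Hk3 at -1.20 (adjusted p = 0.0405) and Pfkfb4 at 0.62 (adjusted p = 0.0469), while 1.99% of all genes were.

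The isoform makeup per length is a description of levels, with no test. It depends on the gene lengths in the count table, which may differ from those of the transcripts expressed. With SR9009 and LPS, Pfkm made up 8.69% ± 4.3 (SD, n = 4) of the phosphofructokinase transcripts, between the shares in LPS and DMSO. Pfkfb3 was 87.3% ± 4.8 of the pair with Pfkfb4. Aldoa was 96.2% ± 0.41 of the aldolase transcripts in DMSO and 96.7% ± 0.91 with SR9009 and LPS, so Aldoc remained the minor gene in both. Egln3 was 19.8% ± 5.5 of the pair with Egln1 in DMSO, 22.5% ± 4.8 after LPS, 36.7% ± 13 with SR9009 (25.2% to 53.5%, highest in mouse 1) and 39.4% ± 2.0 with SR9009 and LPS. Slc16a3 was 90.1% ± 1.9 of the pair with Slc16a1 in DMSO and 74.1% ± 38 with SR9009, where mouse 1 alone had 16.6%.

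**Figure D5:**
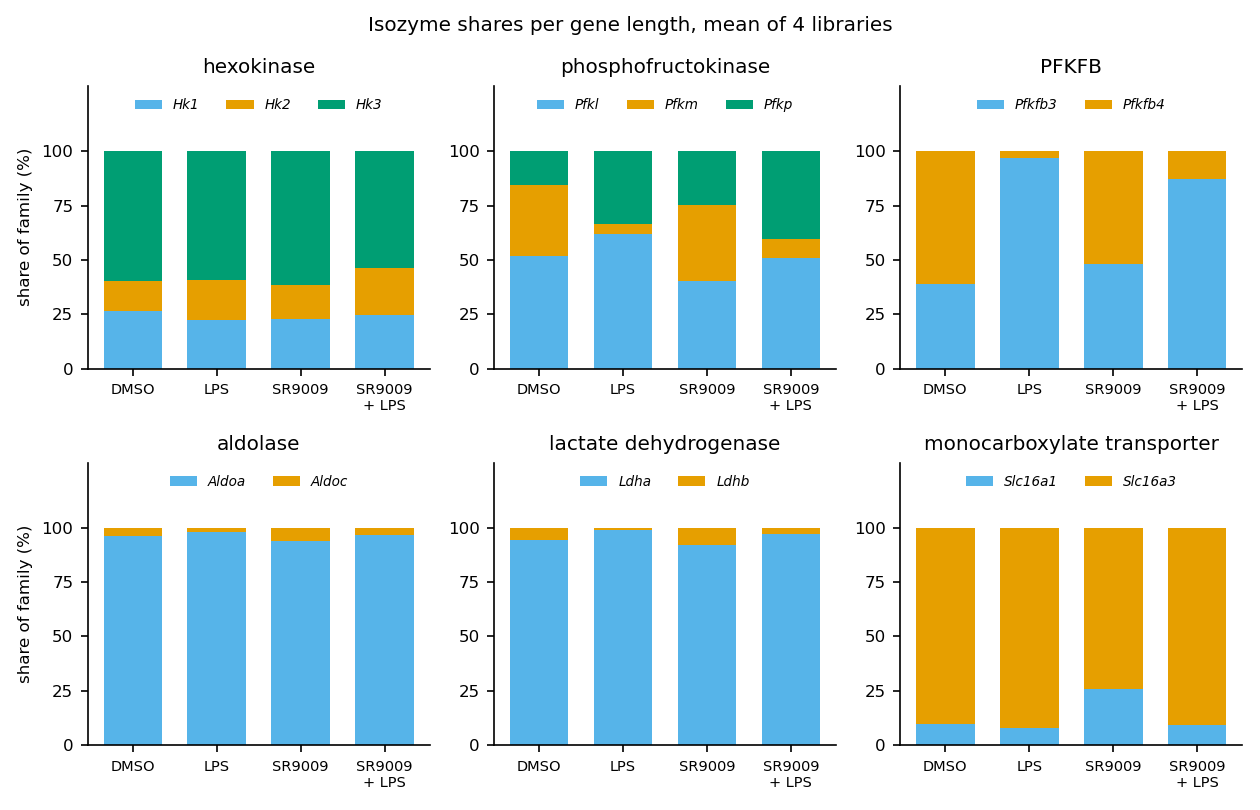
Mean share of each isoform in 6 enzyme or carrier families, in percent of the family's CPM per kb of gene length, for the 4 groups (n = 4; the SR9009 bars include mouse 1). Pfkm shrinks from 33.0% in DMSO to 4.44% after LPS, and Pfkfb3 grows from 38.8% to 96.7%.

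Genes next to the pathway were read from 4 further lists, whose counts stand beside 39.8% of all genes called with LPS and 1.79% in SR9009 and LPS versus LPS. Of 25 tested genes of oxygen sensing and other HIF1 targets, 10 rose and 3 fell with LPS, and 1 rose (Gbe1) and 1 fell (Ndrg1) with SR9009 and LPS against LPS. Without the SR9009 library of mouse 1, when 11.5% of all genes were called, 1 was higher (Gbe1) and 3 were lower (Plod1, Ndrg1 and Egln2) in the latter comparison. With the block as well, 4 were higher and 4 lower, while 21.3% of all genes were called. Ndrg1, a stress-response gene induced by hypoxia, was at 186 ± 47.5 CPM after LPS and 69.5 ± 26.3 CPM with SR9009 first (log2 fold change -1.42 ± 0.27, adjusted p = 0.0143). Gbe1, the glycogen branching enzyme gene, was at 27.9 ± 2.96 and 82.8 ± 42.7 CPM (1.57 ± 0.33, adjusted p = 0.0232). With SR9009 alone, Bhlhe40, a transcriptional repressor of the clock, was the 1 gene of this list that rose (edgeR adjusted p = 0.0426). In that comparison 0.878% of all genes were called. Bhlhe40 was not called without the SR9009 library of mouse 1 unless the mouse was a block, when it was called with and without that library. Its call was also lost with RLE scaling (adjusted p = 0.0578), with no filter (0.0785) and with the compared groups alone (0.122). Leaving out mouse 2, 3 or 4 ended the call of Bhlhe40 (adjusted p = 0.296 to 0.373), and those of Ndrg1 (0.110 to 0.241) and Gbe1 (0.0805 to 0.342) against LPS.

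Of 17 other tested glycolytic isozymes and carriers, 4 rose and 7 fell with LPS and none passed with SR9009, alone or before LPS, with all libraries. Slc2a8, a glucose transporter gene, was higher in SR9009 and LPS versus LPS once the shallow SR9009 library of mouse 1 was left out (0.98 ± 0.22, adjusted p = 0.0108). With the block as well, Pgm2, Slc2a8 and Bpgm were higher and Gpd2 lower, in a fit that called 21.3% of all genes. Of 29 tested genes of pyruvate entry and the citric acid cycle, 4 rose and 4 fell with LPS. Pcx, pyruvate carboxylase, was the 1 of them called in SR9009 and LPS versus LPS, at 5.14 ± 1.66 CPM after LPS and 23.5 ± 9.64 CPM with SR9009 first (2.20 ± 0.49, adjusted p = 0.0330, and 0.279 to 0.311 without mouse 2, 3 or 4). With the SR9009 library of mouse 1 left out, 4 of them were higher, while 6.68% of all genes were. Of 8 tested genes of the pentose phosphate pathway, which branches off glucose-6-phosphate and makes NADPH, 1 rose and 1 fell with LPS. None passed in SR9009 and LPS versus LPS with all libraries, and 4 were higher (Tkt, Taldo1, H6pd and Rpia) without that library. Taldo1, transaldolase, was at 220 ± 21.1 CPM after LPS and 442 ± 51.6 CPM with SR9009 first (1.01 ± 0.30, adjusted p = 0.106 with all libraries and 0.000165 without that one).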

How the data were processed

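Messenger RNA of 16 macrophage libraries was captured by poly(A), per the labels' protocols, and the submitters' processing notes name the aligner HISAT2 and the build GRCm39 (mm39). Which tool counted the reads, with which annotation and strand setting, is not given in the sources used here. Raw counts per gene, with gene lengths, are in the table the authors deposited, per the file headers. The deposited FPKM tables were not used.

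Counts were analysed in R 4.3.3 with edgeR 4.0.16 (limma 3.58.1 and DESeq2 1.42.0 as alternatives), and tables and figures were made in Python 3.11.15. Of 56748 genes, 13438 passed filterByExpr (minimum count 10, minimum total 15). A robust quasi-likelihood model with TMM scaling and a mean for each group used all 16 libraries, without a block, and p was adjusted by Benjamini-Hochberg over all genes tested, with a threshold of 0.05. The tests were also run on simulated counts. These had no mouse effect and no library with outlying expression, so that check does not cover either feature. SE values were derived from the test, as the absolute log2 fold change over the square root of its F statistic. CPM used TMM-scaled library sizes. For the interaction, the SR9009 effect in cells without LPS was subtracted from that in cells with LPS.

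Replicate numbers are mouse numbers in the sample titles, so they pair libraries by animal. Deviations from group means correlated at 0.0809 to 0.560 in the 24 same-mouse pairs (median 0.249) and had a median of -0.0899 in 72 different-mouse pairs.

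The members and lists were chosen with earlier results of these data known. Values in every library are given for members called with SR9009 or in the interaction with all libraries or without the SR9009 library of mouse 1, the 6 largest LPS responses, and Slc2a1, Slc16a1, Slc16a3, Ldha and Hif1a. Gapdh and Vegfa were added after their values were seen. Up to 3 genes per further list were those with the smallest p in SR9009 and LPS versus LPS. Bhlhe40 was named outside this rule. Gene lengths set levels compared between genes. Promoter windows are RefSeq's, of GRCm38.p6.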

Additional observations from a re-analysis of the deposited data

Results flagged for a closer look

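Among 128 sets of 4 values (32 members in 4 groups), 12 had 1 library far from the other 3 by Dixon's criterion at 95%, which chance gives in about 1 in 20 sets. Of these, 7 were the SR9009 library of mouse 1. In it Hk1 (52.1 CPM), Hk2 (33.2 CPM), Gpi1 (188 CPM), Aldoa (366 CPM) and Eno2 (2.51 CPM) were far below the other 3 mice, and Hif1a (1139 CPM) and Ero1a (194 CPM) far above them. This library had the fewest counts and genes of the study, and the part of either in these values was not tested.

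The other 5 lay in 5 different libraries. Gapdh was far higher in mouse 2 than in the other mice, with 112 CPM in DMSO and 133 CPM with SR9009. Pgam1 was highest in mouse 4 with DMSO (354 CPM). After LPS, Slc2a6 was lowest in mouse 1 (685 CPM) and Hk2 highest in mouse 3 (334 CPM).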

How the results depend on the processing

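Counts of members called were recomputed with 2 other scalings, 2 other filters, DESeq2, limma-voom, the compared groups alone, the replicate block, each mouse left out, and the SR9009 library of mouse 1 left out with and without the block. The interaction uses all 4 groups, so it has no separate fit on compared groups alone. For LPS versus DMSO the count of 22 was 17 to 26 with 1 mouse left out, 21 to 26 with the other scalings, filters, tools, fits or the block, and 29 with the block and without that library. Among all genes, 3506 of 13466 to 7248 of 13583 were called with 1 mouse left out. The other choices gave 5003 of 26596 to 7850 of 12719, and the last fit 8847 of 13645.

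For SR9009 versus DMSO, 0 members became 2 with DESeq2, 0 to 4 with 1 mouse left out, 3 without the SR9009 library of mouse 1 and 6 without it with the replicate block. Of all genes 2.44%, 1 of 13466 to 194 of 13583, 1.77% and 4.29% were then called. For SR9009 and LPS versus LPS, 2 became 0 to 5 with 1 mouse left out and 3 with the replicate block alone. The count was 5 without the SR9009 library of mouse 1 and 11 without it with the block. In these fits 5 of 13466 to 963 of 13583, 3.98%, 11.5% and 21.3% of all genes were called. For SR9009 and LPS versus SR9009, 16 became 9 with the compared groups alone and 9 to 22 with 1 mouse left out. Of all genes 16.8% and 2430 of 13509 to 5837 of 13583 were then called. The count was 18 without the SR9009 library of mouse 1 and 24 without it with the block. In these 2 fits 5935 and 6845 of 13645 genes were called. The interaction count of 0 became 2 only without the SR9009 library of mouse 1 with the replicate block, when 1.99% of all genes were called. With all libraries, the replicate block gave 24, 0, 3, 20 and 0 members in the 5 comparisons, and 6047, 198, 535, 4569 and 15 of all 13438 genes. Beyond the calls named in the report, it added Eno1 and Ldhb for LPS versus DMSO and Tpi1, Hif1a, Hk3 and Ldhb for SR9009 and LPS versus SR9009.

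Of 1548 recomputed member values, 43 changed sign, and 0 of these had an adjusted p under 0.05. They covered all members for LPS versus DMSO but only some members in the other comparisons, so 43 is not the total. Members not counted also lay on both sides of 0 over the alternative fits. For SR9009 versus DMSO, examples were Pfkl (-0.567 to 0.364), Eno1 (-0.130 to 0.565) and Egln1 (-0.145 to 0.210). For SR9009 and LPS versus LPS, an example was Gapdh (-0.813 to 1.24). All values are log2 fold changes. For the counted members below, that of all libraries is in parentheses, and the cause of the sign changes was not tested. For LPS versus DMSO, Gpi1 (0.101) was at -0.0922 with upper-quartile scaling and -0.0411 to 0.178 with 1 mouse or that library left out. For SR9009 versus DMSO, Hk1 (-0.089) was at 0.0803 with the replicate block and without the SR9009 library of mouse 1 and -0.216 to 0.146 with 1 mouse or that library left out. Pfkm (0.0141) was at -0.0205 with RLE scaling, -0.0266 with no filter, -0.018 with DESeq2, -0.0134 with limma-voom, -0.0205 with the compared groups alone and -0.158 to 0.246 with 1 mouse or that library left out. Ldha (0.172) was at -0.0205 with limma-voom, -0.00153 with the replicate block and -0.00635 to 0.411 with 1 mouse or that library left out. Slc16a3 (0.533) was at -0.625 with limma-voom. For SR9009 and LPS versus LPS, Pfkp (-0.0329) was at 0.0293 with upper-quartile scaling, 0.00598 with no filter and -0.0991 to 0.0981 with 1 mouse or that library left out. Bnip3 (-0.161) was at -0.438 to 0.104 with 1 mouse or that library left out. For SR9009 and LPS versus SR9009, Pfkfb4 (0.302) was at -0.0225 with the replicate block and without the SR9009 library of mouse 1 and -0.0155 to 0.562 with 1 mouse or that library left out. Aldoc (-0.0498) was at 0.0172 with RLE scaling, 0.0162 with DESeq2, 0.00177 with limma-voom and -0.25 to 0.0823 with 1 mouse or that library left out. In the interaction, Slc2a6 (-0.0356) was at 0.0239 with upper-quartile scaling, 0.0362 with no filter, 0.468 with limma-voom, 0.188 with the replicate block and -0.359 to 0.0954 with 1 mouse or that library left out. Aldoa (-0.079) was at 0.000813 with no filter, 0.179 with limma-voom, 0.0445 with the replicate block and -0.328 to 0.0868 with 1 mouse or that library left out. Egln3 (-0.204) was at -0.51 to 0.0528 with 1 mouse or that library left out. Vegfa (0.0303) was at -0.322 to 0.493 with 1 mouse or that library left out. Ero1a (-0.492) was at -0.689 to 0.00637 with 1 mouse or that library left out.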
